A study of Mus musculus with 4 samples.

Results

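The T cell receptor beta locus genes are those whose symbol begins with Trbv, Trbd, Trbj or Trbc. Of the 53 such genes annotated on chromosome 6 (GRCm38, positions 40891229 to 41558452), 29 had a row among the 17561 genes of the count table: 27 of 35 Trbv genes and both Trbc genes. None of the 2 Trbd and 14 Trbj genes had a row, so D and J segments were read from the TCR contigs, the receptor sequences assembled for each cell. The 29 genes were chosen by symbol alone.

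The data are single CD8+ T cells sorted from the BM of mice on a C57BL/6 background, WT or CRBN transgenic, which received BM and T cells from genetically matched donors. By the authors' account, recipients were injected with myeloma cells before the transplant. CRBN (cereblon) is the protein that lenalidomide binds. The groups were isotype antibody with vehicle, isotype with lenalidomide, TIGIT inhibition with vehicle, and TIGIT inhibition with lenalidomide. The antibody was given from the day of transplant and lenalidomide from day 14, and cells were taken at day 28 (week 4 post-SCT) from 5 pooled mice per group. There is thus 1 library per group and no replicate. The deposited tables number the libraries 1 to 4 without naming their treatment, so libraries are compared by number and no treatment effect is given. Libraries cannot be tested against each other, and clusters, though present in all 4 libraries, were made from the same counts and were not tested. Every interval below is a 95% interval for counting error only.

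A developing T cell joins a V, a D and a J segment of this locus by cutting out the DNA between them, and random bases are lost and added at the joins. V genes before the chosen one stay on that chromosome, and those between it and the D segment are lost from it. The V segment brings its own promoter, the joined exon encodes the antigen-binding end of the beta chain, and Trbc1 or Trbc2 encodes the constant end. All descendants of a cell carry the same join, called a clonotype. Here a TRB clonotype is the same V, J and CDR3 nucleotide sequence (the stretch across the joins) within a library. Trbv31 is the exception in layout: it lies beyond Trbc2 on the opposite strand and is joined by inversion.

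The count table held 11754 cells in 4 libraries (4237, 2003, 1725 and 3789 cells, with median depths of 7115 to 7669 UMIs), in 8 clusters named by the authors: naive (Tn), central memory (Tcm), transitory Teff, GzmB+ Teff, TIGIT+ Teff, GzmA+ Tex, TIM-3+ Tex and cycling. The 5 named Teff or Tex (effector or exhausted T cells) are pooled below as Teff and Tex. Summed CD8 T cell markers (Cd3d, Cd3e, Cd3g, Cd8a, Cd8b1, Trac) were at 3883 to 8146 CPM (the UMIs of a gene scaled by all UMIs of the same cells) in every cluster. The 8 macrophage or monocyte markers summed to 1581 CPM in GzmA+ Tex and to 11.8 to 102 CPM in the others, and the part of such RNA in the values of GzmA+ Tex was not tested. Of the cells in the count table, 7961 had a TCR call, of which 7140 carried exactly 1 TRB chain in 4445 clonotypes, 722 carried 2 and 99 carried none. The libraries shared 56 barcode sequences, borne by 112 cells. Of 5020 TRB clonotypes, 49 occurred in more than 1 library, 34 of them in libraries 1 and 2, and 11 of their 1506 cells carried a shared barcode sequence.

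The CDR3 of the largest TRB clonotypes are shown because their V genes recur among those with the most RNA and the widest ranges between libraries. Letters in capitals are the bases that neither the start of the sequence shares with the germline V nor the end with the germline J, so they hold the D segment and the added bases.
TRBV16 TRBJ2-7, library 4, 204 cells: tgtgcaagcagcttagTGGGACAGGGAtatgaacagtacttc
TRBV1 TRBJ2-1, library 1, 185 cells: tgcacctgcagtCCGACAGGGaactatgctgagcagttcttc
TRBV17 TRBJ2-7, library 2, 165 cells: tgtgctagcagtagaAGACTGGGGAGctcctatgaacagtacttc
TRBV26 TRBJ2-1, library 3, 113 cells: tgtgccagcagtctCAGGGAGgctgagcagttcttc
TRBV5 TRBJ2-7, library 4, 110 cells: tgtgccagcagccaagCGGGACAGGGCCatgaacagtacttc
TRBV16 TRBJ2-7, library 1, 100 cells: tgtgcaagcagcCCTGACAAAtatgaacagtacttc
TRBV3 TRBJ2-2, library 1, 94 cells: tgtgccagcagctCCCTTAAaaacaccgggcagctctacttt
TRBV1 TRBJ1-4, library 1, 91 cells: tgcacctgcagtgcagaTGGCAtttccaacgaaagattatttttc
TRBV2 TRBJ2-2, library 4, 74 cells: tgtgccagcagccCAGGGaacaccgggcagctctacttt
TRBV16 TRBJ1-4, library 3, 72 cells: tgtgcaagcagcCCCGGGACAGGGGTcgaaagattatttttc

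For comparison, the germline D segments of the GENCODE M21 annotation (GRCm38, plus strand) are Trbd1 at chr6:41533201-41533212 and Trbd2 at chr6:41542163-41542176.
Trbd1: gggacagggggc
Trbd2: gggactgggggggc
The longest run shared with a germline D was 10 bases of Trbd1 in the TRBV16 TRBJ1-4 clonotype of library 3, and 8 bases of Trbd2 in the TRBV17 clonotype of library 2. In the TRBV3 TRBJ2-2 clonotype of library 1 it was 2 bases, too few to name a D. Over the 4214 clonotypes with a V name other than TRBV10, whose first bases are described below, the capitals averaged 10.3 ± 3.85 bases (SD), and 21 clonotypes had none. The 27 of at least 20 cells averaged 10.2 ± 3.30 bases, and the 3860 seen in 1 cell averaged 10.3 ± 3.83. No CDR3 was out of frame in these contigs, which were deposited as already filtered, and lengths ran from 24 to 57 bases.

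With all libraries pooled, Trb RNA was lowest in Tn and highest in TIM-3+ Tex. Summed over the 29 genes, Tn held 1635 CPM (1611 to 1659), Tcm 2164, GzmB+ Teff 2363, GzmA+ Tex 2687, cycling cells 2768, TIGIT+ Teff 2891, transitory Teff 3219 and TIM-3+ Tex 3310 (3275 to 3346). The intervals of neighbours in this order did not overlap. In Tn the 4 libraries were alike, at 1620, 1709, 1633 and 1589 CPM, while in Teff and Tex they were at 2807, 3684, 3075 and 2716. Every Teff and Tex value lay above every Tn value. The log2 ratio of Teff and Tex to Tn was 0.87 over all cells (0.84 to 0.89) and between 0.77 and 1.11 in single libraries. In each cluster 98.8% to 99.9% of cells had at least 1 Trb UMI, which left little room for that share to differ. CPM is relative to depth, whose cluster medians ran from 5545 UMIs in transitory Teff to 13959.5 in cycling cells. Per cell, Trbv UMIs averaged 24.6 with a TCR call and 35.4 without in cycling cells, against 17.2 and 34.1 in TIM-3+ Tex. The order by CPM was thus not the order per cell. The top 2 clusters also changed places between libraries in the Trbv RNA of cells with a TCR call. In libraries 1 to 4 this was at 2410, 3183, 2836 and 2529 CPM in transitory Teff. In TIM-3+ Tex it was at 2229, 4324, 3494 and 2157 CPM, with 22 such cells in library 3.

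The constant genes followed the sum. Trbc1 stood at 101 CPM in Tn and 247 in TIM-3+ Tex, and Trbc2 at 219 and 497. The log2 ratio of Teff and Tex to Tn was 1.03 for Trbc1 (0.94 to 1.12) and 0.96 for Trbc2 (0.90 to 1.02), with single libraries at 0.23 to 1.63 and 0.85 to 1.27. Library 1 had the highest Trbc1 ratio and library 2 the lowest. In library 2, Trbc1 was at 127 CPM in Tn and 149 in Teff and Tex. Trac, the constant gene of the alpha chain, had a log2 ratio of 0.97 (0.90 to 1.03). Of the CD3 chains, which carry the receptor's signal, Cd3e was at 798 CPM in Tn and 1598 in Teff and Tex, and Cd3g at 746 and 1446. Cd3d (0.23) and Cd247 (0.35), 2 further chains of that complex, differed less. Of the 16 listed genes of receptor assembly and coreceptors, 13 had a row under the listed name and the gamma chain constant genes had theirs under the older symbols Tcrg-C1, Tcrg-C2 and Tcrg-C4. The list's genes with at least 5 CPM numbered 10. Of these, 7 had a higher log2 ratio than the Trb sum: Tcrg-C2 (3.35), Tcrg-C4 (1.99), the coreceptor gene Cd8a (1.11), Cd3e, Trac, Cd3g and Tcrg-C1 (0.90). Cd3d, Cd247 and Cd8b1 (-0.03), the partner of Cd8a, had lower ones. Ptcra, Rag1, Rag2 and Dntt, which act while thymocytes rearrange the receptor, were at 0.123 CPM or less over all cells.

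Single V genes departed from the sum in both directions. Of the 21 Trbv genes with at least 5 CPM over all cells, 5 were above 2-fold in Teff and Tex over Tn and none was 2-fold lower. Among all 8960 genes at that level, 10.8% were above 2-fold higher and 1.03% lower, and the median log2 ratio was 0.66 for the Trbv genes and 0.30 for all genes. The 5 genes were Trbv1, Trbv16, Trbv17, Trbv19 and Trbv30, and their ratios came from different libraries. Left out of the count were 6 Trbv genes under 5 CPM, among them Trbv10 with no UMI. With each TRB clonotype taken as the mean of its cells, in cells with exactly 1 TRB chain only, the count was 2 (Trbv1 and Trbv17). The part of missing calls in that count was not tested. Over all cells without library 1 the count was 10, of which 9 were higher, and Trbv12-1 was lower.

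Trbv1 was the V gene with the most RNA, at 351 CPM over all cells. In Tn it stood at 117, 102, 125 and 119 CPM in libraries 1 to 4, and in Teff and Tex at 763, 350, 180 and 203. All 4 libraries were higher in Teff and Tex, with log2 ratios of 2.71, 1.77, 0.52 and 0.78. Trbv16 stood at 66.1, 137, 121 and 127 CPM in Tn and at 230, 126, 404 and 620 in Teff and Tex, so that it was higher in all libraries but library 2. Trbv17 was at 48.1, 79.9, 57.0 and 65.9 CPM in Tn and at 39.1, 1348, 142 and 72.8 in Teff and Tex. Library 2 alone gave it a log2 ratio of 4.08, against -0.30 in library 1, and without library 2 neither Trbv17 nor Trbv19 was above 2-fold. Trbv19 stood at 46.5, 62.7, 65.2 and 59.0 CPM in Tn and at 109, 251, 124 and 51.6 in Teff and Tex, higher in all libraries but library 4. Trbv30 reached 60.5 CPM in Teff and Tex of library 1 and at most 3.71 in the others, and without library 1 it fell under 5 CPM.

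Trbv12-1 went the other way in all 4 libraries. It stood at 50.4, 89.9, 101 and 64.7 CPM in Tn and at 43.0, 46.6, 29.7 and 32.9 in Teff and Tex, a log2 ratio of -0.97 over all cells (-1.09 to -0.85), which did not reach 2-fold. It was highest in Tcm, at 119 CPM against 40.4 in all other cells. In the Tcm cells of libraries 1 to 4 it stood at 122, 139, 93.3 and 116 CPM.

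**Figure D1:**
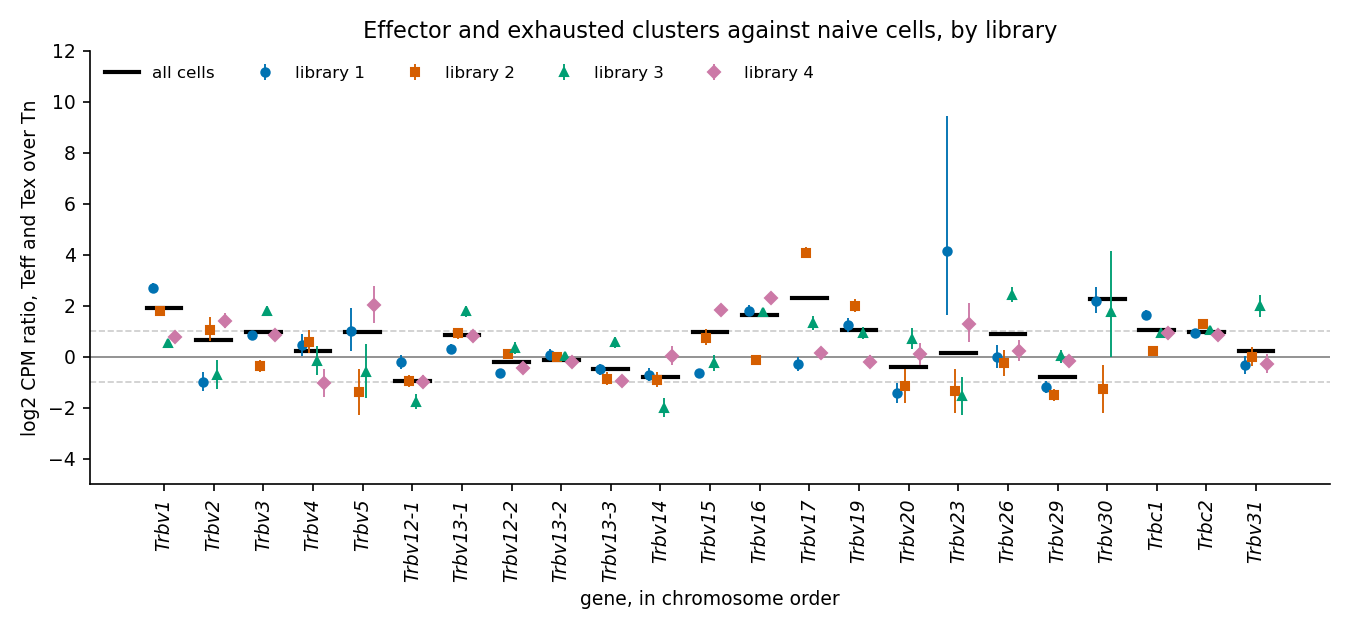
Log2 ratio of CPM in the 5 Teff and Tex clusters to CPM in Tn (y axis) for each Trb gene with at least 5 CPM (x axis, in chromosome order). Black bars are all cells, symbols are single libraries with 95% counting intervals, and dashed lines mark 2-fold. Trbc2 and Trbv1 are above 0 in all 4 libraries and Trbv12-1 is below 0 in all 4, while Trbv17 runs from -0.30 in library 1 to 4.08 in library 2.

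Trbv17 and Trbv26, which led 5 other clusters, were each high in 1 library. Trbv17 led transitory Teff, GzmA+ Tex and TIM-3+ Tex. In the first and the last of these, library 2 held 1502 and 2009 CPM. In library 3 it was at 270 and 644 CPM, and the 644 came from 31 cells. Trbv26 led TIGIT+ Teff and cycling cells, with 284 and 452 CPM in library 3 and at most 47.1 and 32.0 in the others. Trbv12-1 also led GzmB+ Teff, at 80.8 CPM against 57.9. Trbv29 led Tn by a small margin, at 78.4 CPM against 53.2 in all other cells, and it ranged from 56.8 to 112 CPM between libraries.

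Between libraries, 14 of the 21 Trbv genes had a highest value above 2 times the lowest, against 4.17% of all 8960 genes. Trbv30 had the widest range (36.1 CPM in library 1, 1.38 in library 4), followed by Trbv17 (802 in library 2, 39.1 in library 1), Trbv26 (231 in library 3, 16.1 in library 2), Trbv15 (248 in library 4, 44.2 in library 3) and Trbv2 (66.2 in library 4, 12.5 in library 3). Trbv12-2 (121 to 142 CPM), Trbv29 (47.1 to 62.0) and Trbv12-1 (51.8 to 69.9) ranged least. The 5 genes with the widest ranges each matched a large clonotype of the library where they were high. In Trbv17, 165 of the cells with a TRBV17 contig in library 2, or 80.9%, were 1 clonotype, and in Trbv26 of library 3 it was 86.9%. Each TRB clonotype of a library and cluster was then counted as the mean of its cells. The number of genes above 2-fold between libraries fell from 14 to 5, which were Trbv1, Trbv16, Trbv20, Trbv23 and Trbv26. That count used only the 7140 of 11754 cells with exactly 1 TRB chain. Missing calls differed by V gene and library, as given below, and their part in the fall was not tested. Over all cells without library 2 the count was 9.

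**Figure D2:**
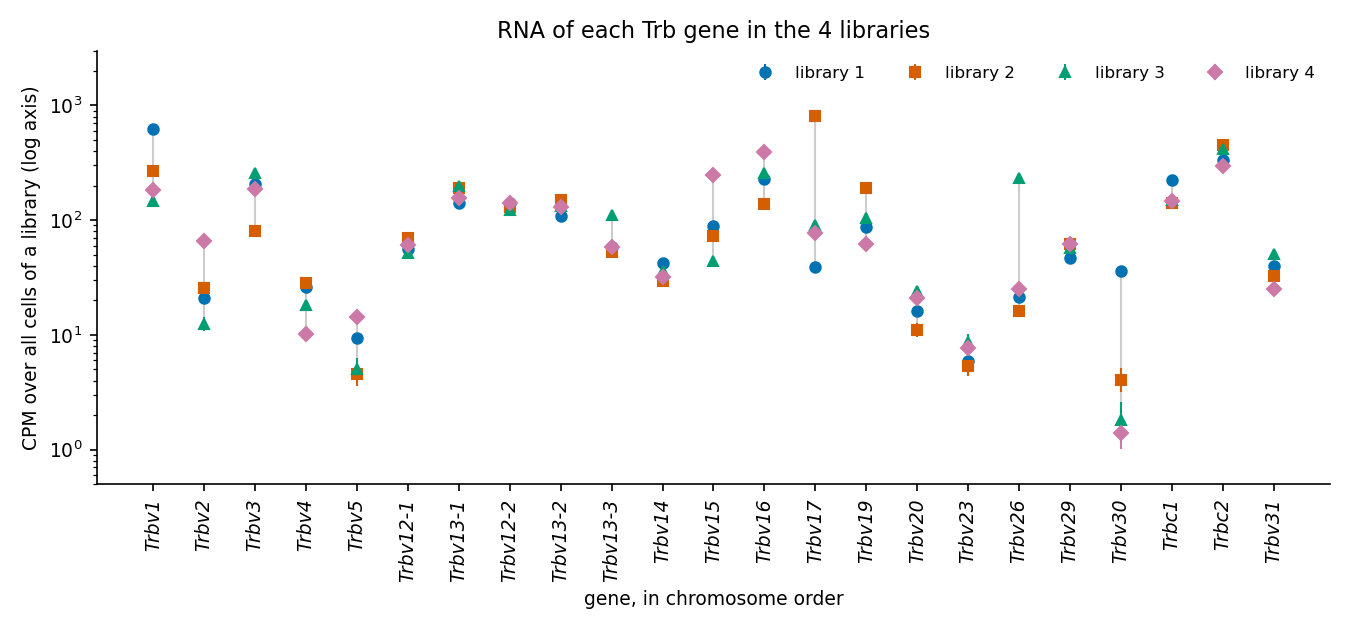
CPM of each Trb gene with at least 5 CPM over all cells of a library (y axis, log scale), in chromosome order on the x axis, with 95% counting intervals. The 4 libraries lie close together for Trbv12-1, Trbv12-2, Trbv13-2 and Trbv29 and far apart for Trbv17 (39.1 to 802 CPM), Trbv26 (16.1 to 231) and Trbv30 (1.38 to 36.1).

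The gene expression counts and the contigs come from the same cells and can be read against each other. Of the 7140 cells with 1 TRB chain, 93.0% (92.4% to 93.6%) had at least 1 UMI of the V gene named on the contig. For each single V name but TRBV5 and TRBV10 this share was at least 97.6%, while the same gene had a UMI in at most 17.0% (Trbv13-2) of the cells with another V. Trbv1 had UMIs in 643 of 643 TRBV1 cells, with a median of 14, and in 6.30% of cells with another contig V. With clonotypes weighted equally, and among single V names other than TRBV31, the latter share was 13.8%, 2.26%, 4.71% and 2.02% in libraries 1 to 4. It was thus highest in the library with the large TRBV1 clonotypes, and the part of stray RNA in it was not tested. Trbv17 had UMIs in 321 of 321 TRBV17 cells, with a median of 29, and in 1.25% of the others. After thinning each cell to 2500 UMIs the own-gene share was 98.4% for Trbv1 and 99.7% for Trbv17, and the shares in other cells were 2.74% and 0.57%. Median depths were 6087 UMIs in TRBV1 cells and 6778 in the others.

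The shortfall came from the names TRBV10 and TRBV5. Without them, 99.9% of cells had a UMI of their contig V gene. None of 334 TRBV10 cells had a Trbv10 UMI, which allows a share of up to 1.10%, and 85.2% of them, with clonotypes weighted equally, had a Trbv4 UMI (78.9% to 90.2% in single libraries). No contig carried the name TRBV4, and Trbv4 had UMIs in 0.727% and 0.784% of the cells whose V lies beyond or before it, TRBV10 left out. The germline ends of the genes are shown from 9 bases before the codon that opens the CDR3, with that codon in capitals. Trbv4 and Trbv5 are annotated as V genes at chr6:41059394-41059886 and chr6:41062332-41062803, and Trbv10 as a V pseudogene at chr6:41091940-41092228, all on the plus strand.
Trbv4: gtgtatctcTGTgccagcagctaaga
Trbv10: atgtacttcTGGgccagcagtgaacaaa
Trbv5: gtctattttTGTgccagcagccaaga
The largest TRBV10 clonotypes are set beside them, here with capitals for the bases shared with neither the Trbv4 end nor the germline J.
TRBV10 TRBJ1-1, library 1, 36 cells: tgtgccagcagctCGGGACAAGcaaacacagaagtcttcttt
TRBV10 TRBJ1-5, library 2, 34 cells: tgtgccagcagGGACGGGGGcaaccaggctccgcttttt
Over the 231 TRBV10 clonotypes, the first bases of the CDR3 matched the Trbv4 end, read from the opening codon, for a mean of 12.4 bases before the first difference, and the Trbv5 end for a mean of 12.1. The match to Trbv10 ended after 2 bases in each clonotype, within that codon, but 9.92 of the first 11 bases were the same on average, against 10.9 for Trbv4. The CDR3 alone thus separated the Trbv10 end by that codon and did not separate Trbv4 from Trbv5. The longest run shared by the Trbv4 and Trbv10 transcripts was 9 bases. TRBV5 cells had a Trbv5 UMI in 62.9% (58.0% to 67.5%), with a median of 1 UMI, against 0.238% of other cells. Trbv5 took 0.473% of V UMIs in cells of which 5.88% carried a TRBV5 contig, the lowest ratio of any V gene with RNA, followed by Trbv2 (1.97% of V UMIs, 4.45% of cells) and Trbv12-1 (4.53% and 7.58%). At the other end were Trbv15 (5.97% of V UMIs, 2.28% of cells), Trbv17 (10.1% and 4.50%) and Trbv13-1 (8.57% and 6.50%). UMIs of this kit come from the 5' end of transcripts and were not corrected for how well each V gene was counted.

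The combined contig name TRBV12-2+TRBV13-2 was carried by 459 cells. All 459 had Trbv13-2 UMIs, with a median of 10, and 31.2% had a Trbv12-2 UMI, with a median of 0. It is read as TRBV13-2 in the V usage of Tn and Tcm cells below.

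**Figure D3:**
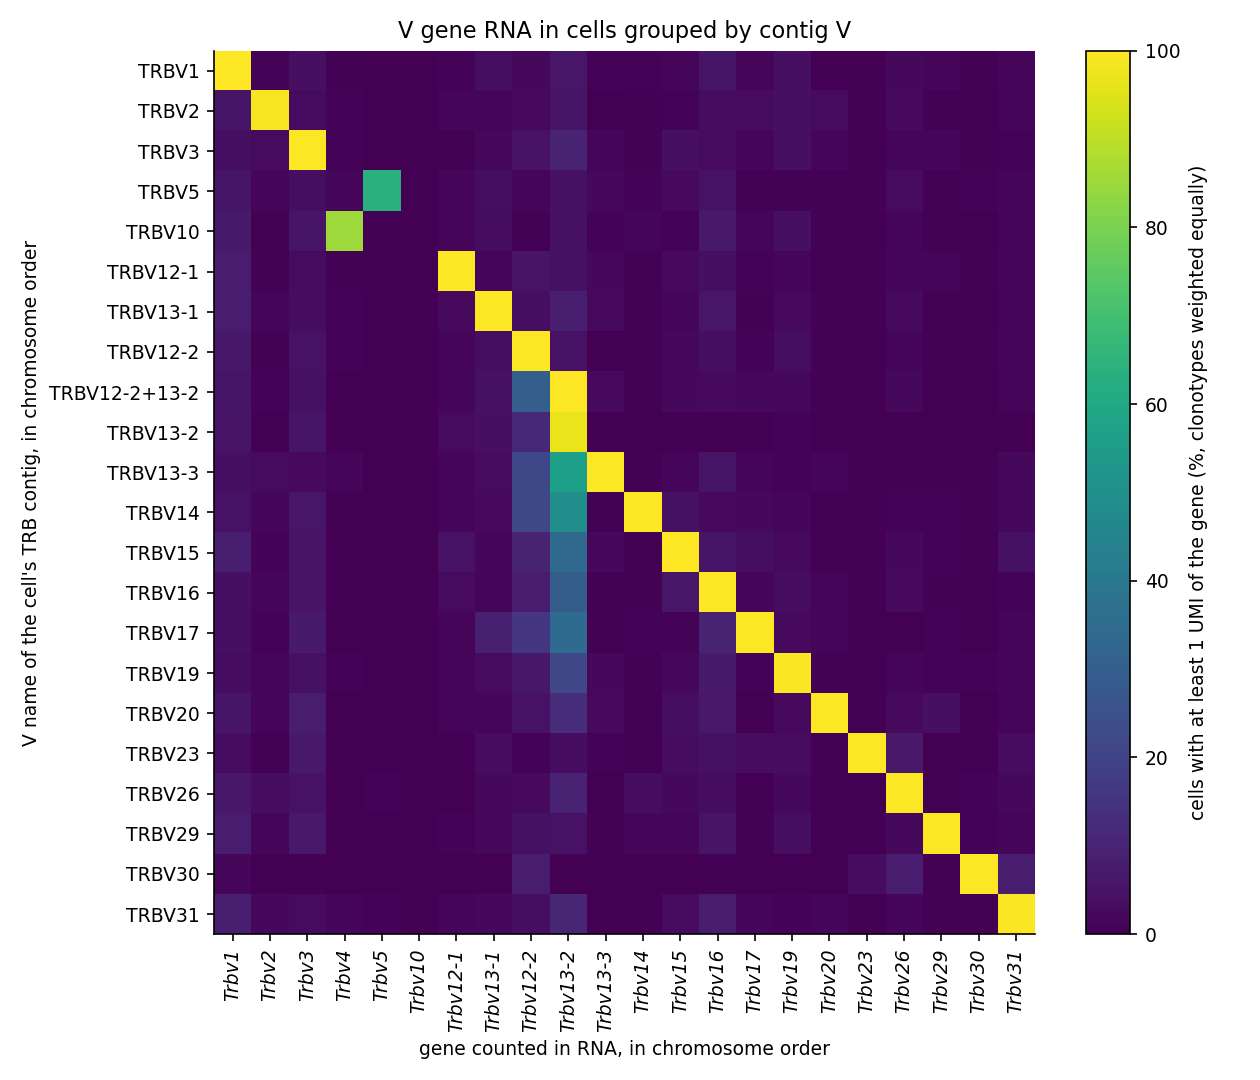
Share of cells with at least 1 UMI of a V gene (colour, 0% to 100%, clonotypes weighted equally), by the V name of the cell's TRB contig (rows) and the V gene counted in RNA (columns), both in chromosome order. Nearly all signal lies on the diagonal, TRBV10 cells light up at Trbv4, and in the columns Trbv12-2 and Trbv13-2 the cells using TRBV13-3, a V gene beyond both, stand at 21.9% and 56.5%.

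RNA of Trbv13-2 and Trbv12-2 was also found in cells using other V genes, and its frequency followed position. Trbv13-2 UMIs were present in 28.7% of cells whose V lies beyond Trbv13-2 (25.3% to 34.8% in single libraries) and in 5.81% of cells whose V lies before it (5.07% to 6.71%), with clonotypes weighted equally and TRBV31 and the combined name left out. The 4 libraries did not overlap between the sides. For Trbv12-2 the shares were 11.1% (9.02% to 12.7%) and 3.38% (2.66% to 4.49%). After thinning to 2500 UMIs the shares for Trbv13-2 were 13.8% and 2.75%, and for Trbv12-2 4.35% and 1.53%. These were the only 2 of 19 V genes with a higher share beyond than before in all 4 libraries.

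Among the cells with a V beyond Trbv13-2, its share fell with distance. It was 56.5% in TRBV13-3 cells (8.75 kb away, 53.1% to 61.3% in single libraries), 49.5% in TRBV14 (13.7 kb), 34.0% in TRBV15 (19.8 kb), 29.5% in TRBV16 (30.3 kb), 35.0% in TRBV17 (41.7 kb), 21.5% in TRBV19 (57.0 kb), 12.8% in TRBV20 (66.9 kb), 10.0% in TRBV26 (106 kb) and 4.72% in TRBV29 (150 kb). TRBV17 lay above TRBV16, within the range of its libraries (27.1% to 50.2%). TRBV23 (3.45%, 29 clonotypes) and TRBV30 (listed at 0 in 13 clonotypes) rest on few clonotypes. TRBV29 cells were at the level of the cells whose V lies before Trbv13-2. In TRBV31 cells, where the join is an inversion, the share was 10.8% (7.14% to 13.7%). Trbv13-2 shares an exact run of 50 bases with Trbv13-3 and of 34 bases with Trbv13-1, but at most 11 with Trbv14, Trbv15 or Trbv16. TRBV13-1 cells, whose V lies before it, had a Trbv13-2 UMI in 8.23%. The part of misassigned UMIs in the TRBV13-3 value was not tested.

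**Figure D4:**
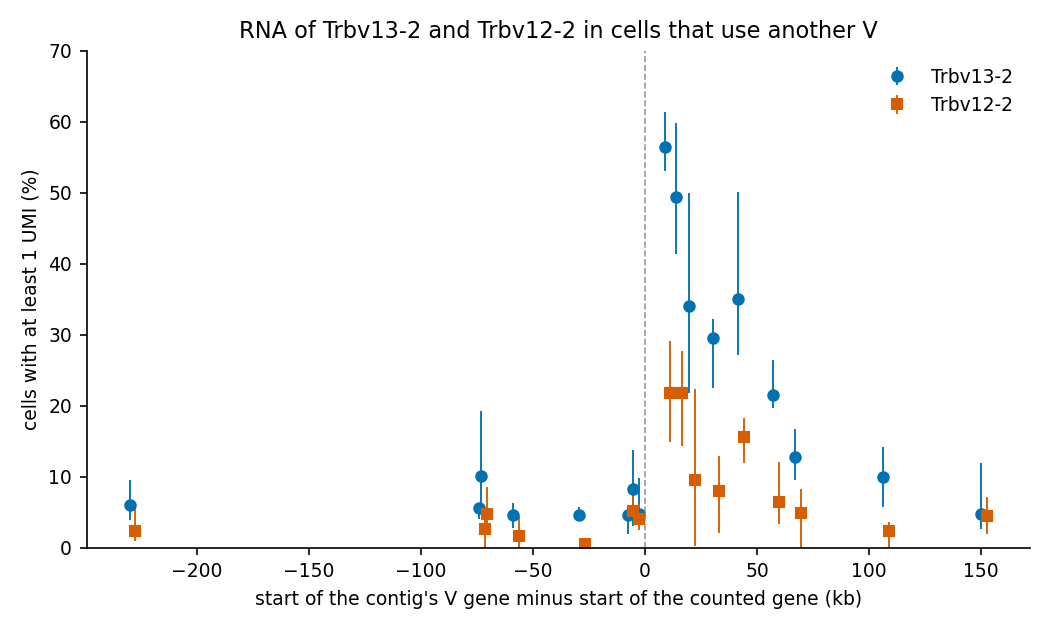
Share of cells with at least 1 UMI of Trbv13-2 or Trbv12-2 (y axis, clonotypes weighted equally) against the distance from the counted gene to the contig's V gene (x axis, kb, positive where the contig's V lies beyond it). Points are contig V names with at least 50 clonotypes and bars run from the lowest to the highest library. Trbv13-2 falls from 56.5% at 8.75 kb to 4.72% at 150 kb and is at 4.56% to 10.1% on the left side.

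Some large clonotypes carried RNA of a second V gene. Of 29 clonotypes with at least 20 cells, 14 had a V gene other than their own in over 40% of cells, and in 8 of the 14 it lay beyond the contig V. In 6 of the 14 it lay before it. In some of the 14 the second gene was Trbv13-2, also seen in 28.7% of all cells whose V lies beyond it. The TRBV13-3 TRBJ1-4 clonotype of library 3 had it in 58.3% of 24 cells, near the 56.5% of all TRBV13-3 cells. The TRBV16 TRBJ2-7 clonotype of library 4 had it in 56.9% of 204 cells, against 12.5% in the rest of that library, on either side of Trbv13-2. Among all TRBV16 cells of library 4, with clonotypes weighted equally, the share was 32.3%. The TRBV5 TRBJ2-7 clonotype printed above had Trbv15 UMIs in 62.7% of its 110 cells in library 4 (53.0% to 71.8%), against 2.52% in the rest of that library. The same sequence in library 1 had Trbv15 UMIs in 22 of 32 cells (68.8%), against 3.15%. The TRBV5 TRBJ2-5 clonotype of library 1 had Trbv31 UMIs in 16 of 20 cells, against 1.48%. The TRBV3 TRBJ2-7 clonotypes had Trbv12-2 UMIs in 60.4% of 48 cells in library 4 and Trbv19 UMIs in 55.3% of 47 cells in library 3, which are different clonotypes by CDR3. The TRBV10 TRBJ1-5 clonotype of library 2 had Trbv29 UMIs in 52.9% of 34 cells, against 0.689%. Mean UMIs of the second gene were low, between 0.646 and 2.08 per cell over the 14 clonotypes.

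A second V was also found on contigs. Of the 722 cells with 2 TRB chains, 387 had different V names, and 333 of these (86.0%) had UMIs of both V genes. The other 335 had the same V on both chains. The largest such group was 153 cells of library 1 that carried both TRBV1 clonotypes printed above, with TRBJ2-1 and with TRBJ1-4. Whether these 2 clonotypes, counted apart above, belong to 1 lineage with 2 beta chains was not tested. Counted once per library, 89 of 437 chain pairs shared their V. A clonotype of at least 20 cells took part in 56.2% of the same-V pairs and in 5.75% of the different-V pairs. The part of doublets in these cells was not tested.

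Which cells received a TRB call depended on their V gene and on the library. Each cell was given the V gene with the most UMIs where it had at least 3 and more than any other V, which 10515 cells (89.5%) did. In cells with 1 TRB chain this gene was the contig V in 96.2%, and in 99.6% with TRBV10 and TRBV5 left out. Among Tn and Tcm cells, which held 7 of the 1208 cells of the 10 largest clonotypes, Trbv1 cells had a TRB contig in 9 of 88 in library 1 (10.2%, interval 4.78% to 18.5%), in 42 of 45 in library 2 (93.3%), in 38 of 42 in library 3 (90.5%) and in 76 of 105 in library 4 (72.4%). Library 1 is the library where both TRBV1 clonotypes printed above were large, with 185 and 91 cells, against 21 and 12 in library 2. Trbv16 cells had a contig in 26.9%, 98.1%, 61.0% and 17.6%. Libraries 1, 3 and 4 are those with a large TRBV16 clonotype. Trbv12-1 cells, whose largest clonotype had 3 to 5 cells per library, had a contig in 92.8% to 98.4%.

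Across V genes the call rate was lower where clonotypes were larger, with exceptions. In the 38 pairs of a V gene and a library whose largest clonotype had under 10 cells, 94.7% of Tn and Tcm cells had a TRB contig, and no pair was under 86.2%. It was 85.4% in 9 pairs with 10 to 19 cells, where Trbv15 of library 1 was lowest at 18 of 45 cells and the highest pair reached 98.8%, 74.0% in 11 pairs with 20 to 49 (55.3% to 93.3%) and 35.8% in 9 pairs with at least 50 (10.2% to 75.0%). Trbv26 of library 3 (12 of 16 cells) and Trbv17 of library 2 (20 of 29) were high in that last bin although their clonotypes had 113 and 165 cells. Spearman's rho over the 67 pairs was -0.70, given as a description, since pairs of 1 library share its sequencing. The uncalled cells were not poor in V RNA. Trbv1 cells of library 1 had a median of 17 Trbv1 UMIs without a call and 7 with one, at 7345 and 6105 UMIs in all. Cells of library 1 with another V, at a close median depth (7107.5 UMIs against 7028), had a contig in 75.2%. The cause was not tested.

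**Figure D5:**
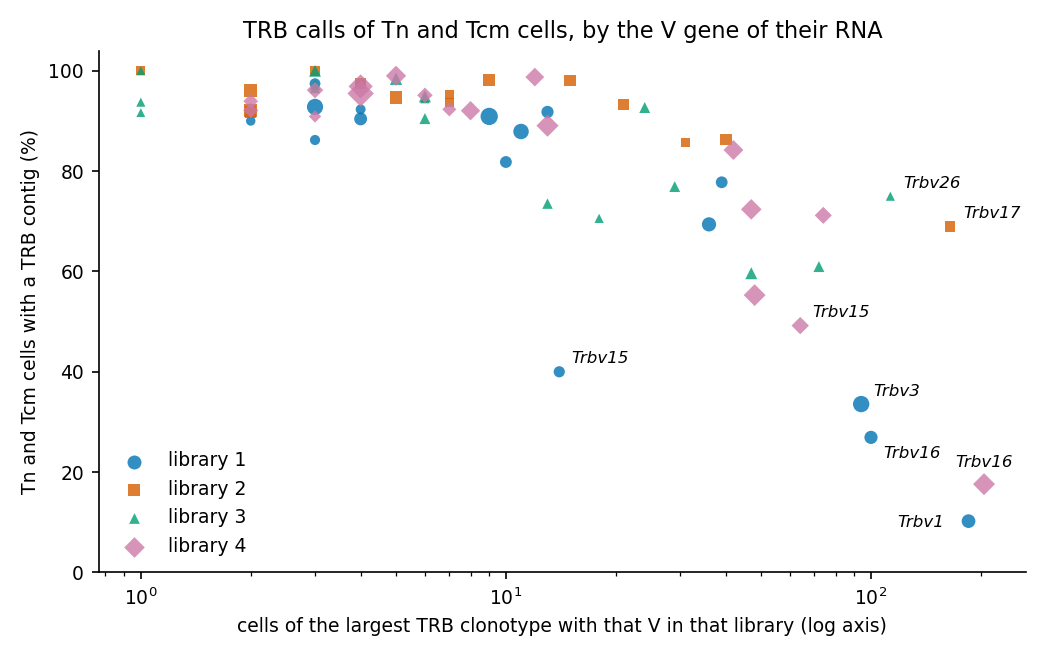
Share of Tn and Tcm cells with a TRB contig (y axis) by the V gene of their RNA, against the number of cells in the largest TRB clonotype with that V in that library (x axis, log scale). Each symbol is 1 of 67 pairs of V gene and library with at least 10 cells, and its size grows with the number of cells. Pairs with small clonotypes lie above 86%, and Trbv1 in library 1 (10.2%) and Trbv16 in library 4 (17.6%) lie lowest.

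V usage of Tn and Tcm cells differed between the readouts. By RNA, Trbv1 was the V gene of 6.62%, 6.42%, 6.81% and 6.68% of assigned Tn and Tcm cells in libraries 1 to 4. By contigs, TRBV1 was that of 0.594%, 5.77%, 5.99% and 4.38%. The libraries were alike by RNA and differed by a factor of 10.1 by contigs. Trbv16 was at 5.86% to 7.96% by RNA and at 1.36% to 7.84% by contigs. For Trbv12-1 the readouts gave 10.2% to 10.6% and 10.5% to 12.6%. Usage per clonotype did not remove the gap, since TRBV1 made up 0.627% of Tn and Tcm clonotypes in library 1 and 4.401% to 6.09% in the others.

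Cells without a TCR call carried V RNA in general. Of the 3793 such cells, 98.0% (97.6% to 98.5%) had a Trbv UMI, and 94.4% did after thinning to 2500 UMIs. In cells with a call the shares were 98.3% and 92.4%. The uncalled share rose from 14.5% in Tn and 21.0% in Tcm to 55.4% in TIGIT+ Teff and 59.0% in GzmA+ Tex. Median depth was higher without a call than with one in 7 of the clusters, for example 12860 against 5664 UMIs in TIM-3+ Tex, and about equal in Tn (7789 and 7865).

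V usage per cell and per clonotype parted in the expanded clusters. The distance between them (0.5 times the summed absolute differences of V shares) was 0.909% in Tn and 1.20% in Tcm, where clonotypes averaged 1.02 and 1.06 cells. It was 5.84% in GzmB+ Teff, 17.4% in GzmA+ Tex, 23.8% in transitory Teff, 24.0% in TIGIT+ Teff, 29.8% in cycling cells and 39.9% in TIM-3+ Tex, where 493 cells fell into 85 clonotypes. In TIM-3+ Tex, TRBV1 was carried by 26.2% of cells and 14.1% of clonotypes, and TRBV5 by 20.7% and 8.24%. Over all clusters the gene with the largest excess per cell was TRBV1 in library 1, TRBV17 in library 2, TRBV26 in library 3 and TRBV16 in library 4.

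Counting each clonotype once, TRBV1 was still more frequent in Teff and Tex than in Tn and Tcm, at 8.85% of 949 clonotypes (7.12% to 10.8%) against 3.91% of 3373 (3.28% to 4.62%). It was 4.17%, 13.7%, 11.4% and 7.83% in Teff and Tex of libraries 1 to 4, against 0.627%, 6.03%, 6.09% and 4.401%. These shares rest on incomplete calls. Trbv1 cells of Tn and Tcm had a contig in 10.2%, 93.3%, 90.5% and 72.4%, as given above, and those of Teff and Tex in 316 of 632, 97 of 138, 32 of 47 and 84 of 141. The part of missing calls in the TRBV1 difference was not tested. TRBV19 (7.06% against 5.28%) and TRBV30 also had a higher share in all 4 libraries, but TRBV30 rests on 5 Teff and Tex clonotypes, 1 or 2 per library. TRBV12-1 (8.64% against 11.8%), TRBV12-2 (8.64% against 12.5%) and TRBV20 (1.48% against 1.90%) were lower in all 4, TRBV20 with 14 Teff and Tex clonotypes, 1 to 6 per library. Of 22 V names, 3 were thus higher and 3 lower in every library, and these counts were not tested against chance.

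J segments showed 1 difference of that kind. TRBJ2-7 was the most used J, in 20.1% of all clonotypes and 18.8% to 22.3% per library. In Tn and Tcm it made up 17.7%, 19.6%, 17.7% and 20.05% of clonotypes in libraries 1 to 4, and in Teff and Tex 21.2%, 26.5%, 22.2% and 22.1%. Teff and Tex lay higher in each library and above all Tn and Tcm values, although single-library intervals overlapped. Pooled, the shares were 18.9% (17.6% to 20.3%) and 22.9% (20.2% to 25.7%), and these intervals overlapped at their ends. By cluster, TRBJ2-7 ranged from 16.9% of Tn clonotypes (14.7% to 19.3%) to 31.8% in TIM-3+ Tex (22.1% to 42.8%, 27 of 85) and 29.4% in cycling cells (24.3% to 34.8%). Per cell it reached 48.1% in TIM-3+ Tex against 17.0% in Tn. No other of the 12 J segments differed in the same direction in all 4 libraries, and 1 such segment of 12 was not tested against chance. These shares rest on incomplete calls too, with 14.5% of cells uncalled in Tn and 59.0% in GzmA+ Tex. The part of missing calls in the TRBJ2-7 difference was not tested. TRBJ1-7 and TRBJ2-6 were on no contig. The germline sequence of Trbj2-7, at chr6:41543810-41543856 on the plus strand, is the J segment of 4 of the 10 clonotypes printed first.
Trbj2-7: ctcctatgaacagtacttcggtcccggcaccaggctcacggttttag

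The TRBJ2 group, which lies next to Trbc2, was used by 70.9% of cells (69.8% to 71.9%) and 68.3% of clonotypes, and by 67.8% to 72.5% of cells per library. Contig constant genes followed the J group without exception. Of 2079 TRBJ1 cells, 2056 were called TRBC1 and none TRBC2, and of 5061 TRBJ2 cells, 5041 were called TRBC2 and none TRBC1. TRBD2 lies beyond the TRBJ1 group, and it was named on 3 TRBJ1 contigs against 470 with TRBD1. TRBJ2 contigs named TRBD1 in 741 cells and TRBD2 in 575, and most contigs named no D. Gene expression counts separated the constant genes less. In TRBJ1 cells, 74.6% had a Trbc1 UMI and 74.6% a Trbc2 UMI, and Trbc1 took 49.9% of the 8568 UMIs of both. In TRBJ2 cells the shares of cells were 25.3% and 78.7%, and Trbc1 took 19.7% of 14782 UMIs. Trbc1 and Trbc2 are near-identical copies, so the division of their UMIs, and with it the CPM of each, is uncertain. Their sum was 319 CPM in Tn and 630 in Teff and Tex, a log2 ratio of 0.98 (0.93 to 1.03).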

How the data were processed

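CD8+ T cells from BM were profiled with the 10x 5' kit. The authors counted reads with Cell Ranger (7.00 in the submitters' processing notes, build mm10), downsampled libraries against each other, filtered cells by UMIs, mitochondrial share and T cell genes, clustered them with Monocle3 and joined TCR chains with scRepertoire. The deposited expression table holds raw UMI counts per gene and cell (sums per library 15556967 to 38440687), with no normalization. The other deposited tables give, as the authors' labels, cluster name, library number, chain names and CDR3 bases. Doublets were not removed here.

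Counts were summed over cells and divided by all UMIs (CPM). Clusters were made from the same counts, so cluster differences are descriptions. Intervals were exact Poisson (CPM), conditional binomial (ratios) and Clopper-Pearson (shares), and they cover counting error only. A count of 0 was given the upper bound of its interval, or 3 counts for CPM. The 2-fold counts used genes with at least 5 CPM. Cells were thinned to 2500 UMIs with seed 7, and no cell was shallower. Contig values used cells with exactly 1 TRB chain. Gene names, positions and germline sequences came from GENCODE M21 (GRCm38), which named 17534 genes. Scripts used Python 3.11.15, numpy 2.4.6, scipy 1.17.1 and pandas 2.3.3, and were tested on simulated data. Alternatives left out a library, averaged libraries, changed depth, filters, chains, clonotypes or cluster labels.

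Members and lists were chosen with earlier results of these data known. Genes named are all Trbc, Trbd and Trbj genes, the 10 Trbv with the highest CPM, the leading Trbv of each cluster (at least 50 CPM, 10 CPM added), the 3 highest and 3 lowest ratios of RNA share to contig share, the V and J of the 10 largest clonotypes, and the 5 widest ranges between libraries. Others (the TRBV10 and Trbv4 pair, second V genes, TRBV12-2, TRBV20 and TRBV30) were named after their values were seen.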

Additional observations from a re-analysis of the deposited data

Results flagged for a closer look

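The TCR table held 1004 cells that are not in the count table and enter no value above. Of these, 899 carried 1 TRB chain, and for 599 of them (66.6%) the same clonotype was also found in cells of the count table. Their V usage lay 22.2% from that of the cells inside.

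Of 23 Trb genes with at least 5 CPM, 11 had a log2 ratio of Teff and Tex to Tn above 0 in one library and below 0 in another. Counting intervals were clear of 0 on both sides, and the 11 were Trbv genes. The share of all genes that do so was not computed, so the count is not shown to be particular to Trbv genes. These differences between libraries were not tested, since each library is a single sample. Trbv2 was at 1.414 in library 4 and -0.9758 in library 1, and Trbv15 at 1.826 and -0.6559 in the same libraries. Trbv5 was at 2.013 in library 4 and -1.395 in library 2. Trbv17 was at 4.076 in library 2 and -0.2982 in library 1, and Trbv30 at 2.187 in library 1 and -1.288 in library 2. Trbv3 was at 1.806 in library 3 and -0.3608 in library 2. Trbv23 was at 4.129 in library 1, with a wide interval (1.62 to 9.45) at 5.96 CPM, and at -1.534 in library 3. Trbv12-2 was at 0.3516 in library 3 and -0.655 in library 1, and Trbv20 at 0.6932 and -1.427. Trbv13-3 was at 0.5592 in library 3 and -0.9603 in library 4, and Trbv4 at 0.5721 in library 2 and -1.037 in library 4.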

How the results depend on the processing

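Where a value moved, the cause was not tested. The log2 ratio of summed Trb CPM (0.87), the value here that could change sign, did not, and was 0.90 as the mean of libraries, 0.91 in cells with a TCR call, 0.89 without GzmA+ Tex and 0.80 to 0.91 leaving out a library. The 5 Trbv genes above 2-fold became 8 as the mean of libraries, 8 without a CPM filter, 8 without cells whose Leiden number has another name, 2 with clonotypes as means (Trbv1 and Trbv17) and 5 to 10 leaving out a library. The 14 genes above 2-fold between libraries became 5 with clonotypes as means and 9 to 12 leaving out a library. The share of cells with a UMI of their contig V (93.0%) was 87.0% thinned, 89.9% with at least 2 UMIs, 99.9% without TRBV5 and TRBV10 and 92.7% to 93.3% leaving out a library. Trbv UMIs in uncalled cells (98.0%) became 97.5% as the mean of libraries, 94.4% thinned, 95.6% with at least 2 UMIs and 97.3% to 98.3% leaving out a library. TRBJ2 use (70.9%) was 68.4% with each clonotype of both alpha and beta chain counted once and 70.1% to 71.5% leaving out a library. The distance of V usages (15.6%) was 19.5% as the mean of libraries, 16.9% with all chains, 17.0% with all TCR cells, 26.7% in Teff and Tex, 1.11% in Tn and Tcm and 14.6% to 16.7% leaving out a library. Leaving out GzmA+ Tex, TRBV5 and TRBV10, the 10 largest clonotypes (7 genes) and the split of the distance by clusters were chosen after seeing the data. No paired analysis was possible because no result comes from a test: each group is 1 library, and clusters were made from the same counts.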
